A study of Mus musculus with 6 samples.

Results

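The semaphorins, plexins and neuropilins are a family of guidance ligands and their receptors, described here in the early mouse lens-forming ectoderm with and without Pax6. Members were all genes whose symbol in the array's annotation is a semaphorin of classes 3 to 7, a plexin of groups A to D, or a neuropilin, a rule that uses no measured value. This gave 30 of the 19057 named genes on the array: 19 semaphorins, which are the ligands, and 11 receptors, of which 9 are plexins and 2 neuropilins. Together they had 79 probes. A gene counted as measured when at least 1 of its probes was detected (detection p under 0.05 against the array's negative controls) on at least 3 of the 6 arrays, and 26 members were, 15 ligands and all 11 receptors, through 44 probes. The other 4, Sema3g, Sema4c, Sema6c and Sema7a, had no probe that met this rule.

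Semaphorins are secreted or membrane-bound proteins that steer axons and migrating cells. Plexins are their main receptors and act on small GTPases, the actin cytoskeleton and adhesion. The secreted class 3 semaphorins mostly bind a neuropilin that is held in a complex with a plexin of group A or D, whereas the membrane-bound classes bind plexins directly, and neuropilins also bind vascular endothelial growth factors. In the embryonic head these proteins guide neural crest cells, cranial nerves and vessels around the eye.

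The Pax6-/- group was surface ectoderm of embryos at embryonic day 9.5 that lacked the eye transcription factor Pax6, and the WT group was the lens placode of wild type embryos of the same age, the thickened ectoderm over the optic vesicle. Both were on a mixed background of FVB and 129, and the allele is not described in the sources used here. Tissue was cut by laser from frozen sections of 10 µm. Per genotype, the RNA of 3 embryos was combined, 3 samples of it were amplified, and each went onto its own Illumina bead array. The p-values measure the spread between these amplified samples, which on that description is technical, and not a spread between embryos. In such bulk samples, fewer cells of a type and less RNA per cell cannot be told apart.

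The arrays differed in how much they detected: 17276 probes on Pax6-/- replicate 2, 21329 and 21589 on the other Pax6-/- arrays, and 21062 to 22712 on the WT arrays. Slide 1, a bead chip, carried Pax6-/- replicates 1 and 2 and WT replicate 1, and slide 2 the other 3 arrays. Pax6 itself lay lower on all 3 Pax6-/- arrays, at a log2 signal of 10.26, 10.79 and 10.31 against 11.10, 11.07 and 11.17 on the WT arrays, but was detected on all 6 (-0.66, SE 0.27, adjusted p = 0.528 by limma). Where its probes lie relative to the mutation was not analysed here, so this level does not check the labels. All 12 measured surface ectoderm and lens placode markers, among them Cdh1 and Tfap2a, were detected on all 6 arrays, while the lens genes Foxe3 and Cryaa were not measured. Of the 12, Prox1 (-1.43, SE 0.41), Sox2 (-0.99, SE 0.40), Six3 (-0.92, SE 0.36) and Pax6 lay lower on all Pax6-/- arrays and Grhl2 (0.49, SE 0.27) higher, none past the threshold. Over all genes tested, 10.3% lay lower in this way and 7.21% higher. The summed signal of all 12 was 9430 to 10917 on the Pax6-/- arrays and 10821 to 11465 on the WT arrays.

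The promoter windows of 3 members are shown: Sema3c and Sema3a, the class 3 ligands whose arrays did not overlap, 1 in each direction, and Plxna2, the receptor that lay higher. Each runs from 250 bases before to 50 bases after the gene's start, 5′ to 3′ on the strand of the gene, from RefSeq on build GRCm38.p6. Capitals mark GGGCGG, the GC box, read on both strands.
Sema3c, chr5:17574566-17574865, plus strand: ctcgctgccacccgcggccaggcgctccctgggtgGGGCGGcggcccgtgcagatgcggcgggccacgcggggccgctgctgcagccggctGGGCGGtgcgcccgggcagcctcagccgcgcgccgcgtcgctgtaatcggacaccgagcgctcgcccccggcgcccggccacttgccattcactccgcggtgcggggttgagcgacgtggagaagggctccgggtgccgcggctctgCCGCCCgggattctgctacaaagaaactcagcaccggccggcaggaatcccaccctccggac
Sema3a, chr5:13396534-13396833, plus strand: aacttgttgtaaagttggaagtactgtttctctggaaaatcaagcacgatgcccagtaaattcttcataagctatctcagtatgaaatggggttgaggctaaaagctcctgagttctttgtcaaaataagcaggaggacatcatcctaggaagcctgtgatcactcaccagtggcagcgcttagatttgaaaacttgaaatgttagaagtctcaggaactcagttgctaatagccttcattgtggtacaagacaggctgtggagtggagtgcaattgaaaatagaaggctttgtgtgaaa
Plxna2, chr1:194619579-194619878, plus strand: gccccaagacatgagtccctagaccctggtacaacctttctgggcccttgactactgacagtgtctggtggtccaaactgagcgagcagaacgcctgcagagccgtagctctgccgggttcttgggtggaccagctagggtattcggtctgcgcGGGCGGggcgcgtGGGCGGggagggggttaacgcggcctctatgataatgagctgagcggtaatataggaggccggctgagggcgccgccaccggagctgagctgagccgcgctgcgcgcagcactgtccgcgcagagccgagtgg
The Sema3c window was 75.7% G or C with 42 CpG dinucleotides and held 3 GC boxes, at 215 and 159 bases before the start and, on the other strand, at 12 bases before it. The Sema3a window was 41.3% G or C with 2 CpG dinucleotides and no GC box. The Plxna2 window was 64.7% G or C with 25 CpG dinucleotides and held 2 GC boxes. Over all 32851 promoter windows the medians were 52.7% and 7 CpG dinucleotides. The GC box was present in 27 of the 36 windows found for 25 members and in 35.7% of all windows. Windows of 1 gene can overlap, so the 36 are not independent. Other letters searched on both strands were TAATTA, a core bound by many homeodomains, TTCACGC, part of the site known for the paired domain of Pax6, and TATAAA. None of the 36 windows held any of them, while 5.29%, 1.26% and 13.6% of all windows did.

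Differences are given as Pax6-/- minus WT on the log2 scale, from limma's moderated test fitted on all 21971 probes detected, with Benjamini-Hochberg adjustment over all of them. A gene with several detected probes is represented by the brightest. By this rule none of the 26 measured members passed an adjusted p of 0.05, where 2 probes (0.00910%) did in the whole table, and both belonged to Tnc, a matrix gene outside the family. At an unadjusted limma p under 0.05 there were 5 members, or 19.2%, against 9.09% of all genes tested. The 5 include Plxnc1, which met the detection rule through the WT arrays alone. That share rests on few members, was not tested, and is not read as particular to the family. On 2 members all Pax6-/- arrays lay above all WT arrays, Sema3c and Plxna2, where 7.21% of all genes did so, and on 4 they lay below, Sema3a, Sema4a, Sema6d and Plxnc1, where 10.3% of all genes did so. These are 7.69% and 15.4% of the 26 members, so neither count is read as particular to the family. The median difference was -0.42 over the 15 ligands and -0.25 over the 11 receptors, beside -0.07 over all 10967 genes tested.

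**Figure D1:**
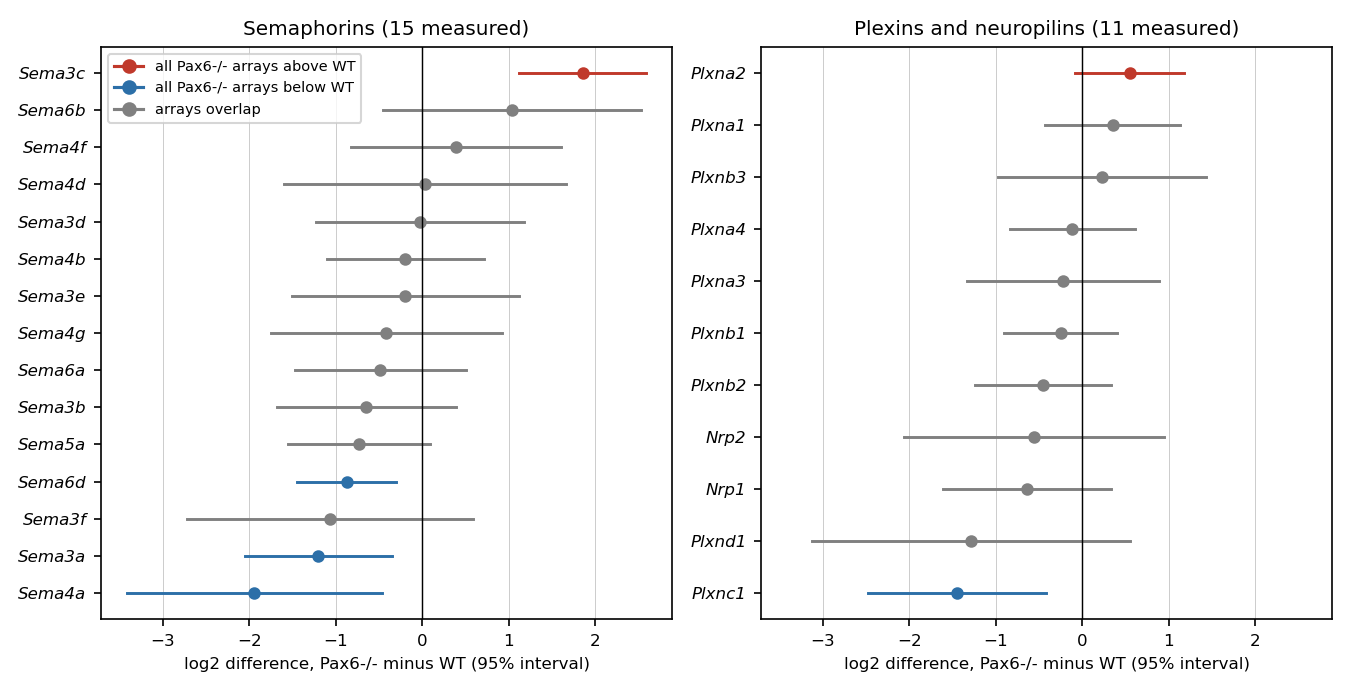
Log2 difference (Pax6-/- minus WT, x axis) of each measured semaphorin (left) and receptor (right) on its brightest probe, with the 95% interval of the limma fit as a line. Red and blue mark the 2 members whose Pax6-/- arrays all lay above and the 4 whose Pax6-/- arrays all lay below the WT arrays, and grey the 20 that overlapped. Sema3c stands at 1.86 and Sema4a at -1.94.

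Sema3c, a secreted class 3 semaphorin known in the mouse for guiding neural crest cells into the heart's outflow tract, was the member furthest above WT. Its brighter probe (ILMN_2673323) read 8.78, 8.81 and 9.54 on the Pax6-/- arrays against 7.25, 7.33 and 6.97 on the WT arrays. The lowest Pax6-/- array thus lay above the highest WT array by more than the spread within either genotype, and the difference was 1.86 (SE 0.31, 95% interval 1.13 to 2.59, 3.63-fold). Its adjusted p of 0.190 by limma did not pass. The second probe (ILMN_1238568) read 9.41, 8.21 and 8.24 on the Pax6-/- arrays against 5.37, 5.33 and 5.33 on the WT arrays. This probe was detected on all 6 arrays but was dim in WT, and its difference was 3.27 (SE 0.38, 9.67-fold, adjusted p = 0.0885 by limma).

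When the detected probes of each gene were averaged before the fit, Sema3c passed and rose by 2.57 (SE 0.25, 95% interval 1.97 to 3.16, adjusted p = 0.0338 by limma over 10967 genes). It averaged 8.83 on the Pax6-/- arrays and 6.27 on the WT arrays, and was 1 of 21 genes (0.191%) past the threshold by that rule. The averaged difference was 2.49 within slide 1 and 2.65 within slide 2, and that of the brighter probe 1.55 and 2.39. With slide in the model the averaged difference no longer passed (2.57, limma adjusted p = 0.157). The call also ended when any single array was left out. The difference then stayed between 2.43 and 2.73, with limma adjusted p from 0.0637 without Pax6-/- replicate 2 to 0.212 without WT replicate 2. In all of these fits no gene in the whole table passed, so the lost call is not particular to Sema3c.

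Sema3a, the secreted repellent that acts through Nrp1 and plexins of group A, differed the other way on its brighter probe. It read 8.71, 7.48 and 8.19 on the Pax6-/- arrays against 9.20, 9.44 and 9.35 on the WT arrays. All 3 Pax6-/- arrays were below WT and spread more widely (SD 0.62 against 0.12), and the difference was -1.20 (SE 0.36, 95% interval -2.05 to -0.35, adjusted p = 0.415 by limma). The second Sema3a probe overlapped between the genotypes, at 8.16, 7.94 and 5.75 in Pax6-/- and 8.20, 6.89 and 7.68 in WT, with a difference of -0.31 (SE 0.69). Averaged over both probes the difference was -0.75 (SE 0.40), with overlap. The brighter probe gave -1.11 within slide 1 and -1.20 within slide 2. Sema3d and Sema3e, which lie on chromosome 5 with Sema3a and Sema3c, had differences of -0.02 (SE 0.51) and -0.20 (SE 0.56), with overlapping arrays.

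Sema3f, the secreted ligand of Nrp2, was set by a single array. Its brightest probe read 10.07, 7.43 and 9.90 on the Pax6-/- arrays against 10.11, 10.57 and 9.94 on the WT arrays. Only Pax6-/- replicate 2 was low, as on a second bright probe, with 6.97 on that array and 9.40 to 10.19 on the other 5. The difference of -1.07 (SE 0.70) became -0.22 without Pax6-/- replicate 2, and the third, dimmer probe had the opposite sign, at 0.82 (SE 0.76). Sema3b, another secreted class 3 member, was dim on both of its probes, which differed in sign (-0.64 and 0.34).

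**Figure D2:**
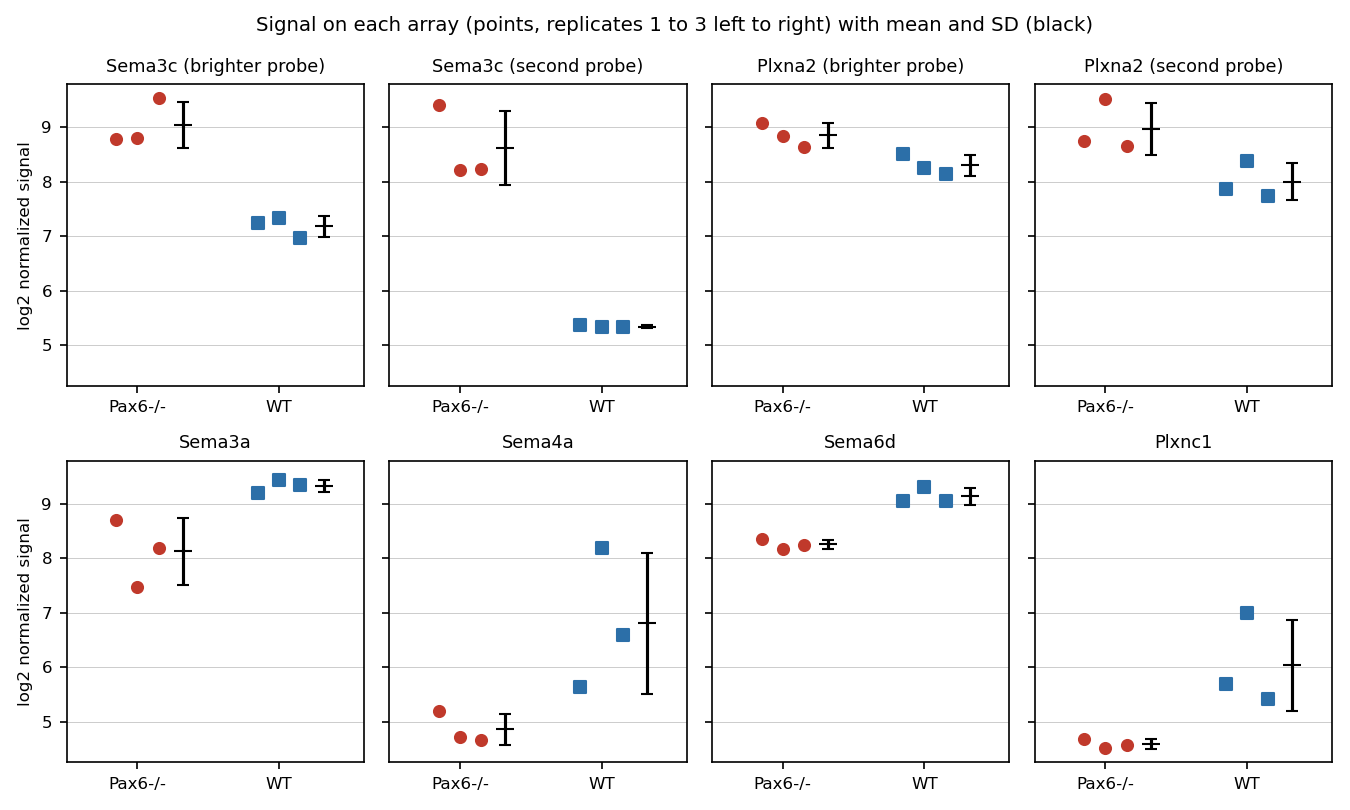
Log2 normalized signal (y axis) on each array for the 6 members whose genotypes did not overlap, with Pax6-/- in red at the left and WT in blue at the right of each panel. Points are arrays, in the order of replicates 1 to 3, and the black marks are the mean and SD of 3 arrays. Both Sema3c probes and the 2 brighter Plxna2 probes lie higher in Pax6-/-, while Sema3a, Sema4a, Sema6d and Plxnc1 lie lower.

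Among the membrane-bound semaphorins of classes 4 to 6, 9 were measured, with 3 positive and 6 negative differences. Sema6d, a transmembrane ligand of plexins of group A, had the tightest groups: 8.35, 8.18 and 8.25 on the Pax6-/- arrays against 9.05, 9.31 and 9.05 on the WT arrays. The gap between the genotypes exceeded the spread within each, and the difference was -0.88 (SE 0.24, 95% interval -1.45 to -0.30, adjusted p = 0.393 by limma). It stayed between -0.92 and -0.79 when any 1 array was left out, and was -0.78 within slide 1 and -0.93 within slide 2. A second, dim Sema6d probe overlapped, with a difference of -0.47 (SE 0.44).

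Sema4a, a transmembrane semaphorin known to bind plexins of groups B and D and linked in humans to retinal degeneration, read 5.20, 4.73 and 4.66 on the Pax6-/- arrays against 5.64, 8.19 and 6.60 on the WT arrays. It was detected on 1 Pax6-/- array and on all WT arrays. The WT arrays spread over more than the gap between the genotypes, so the difference of -1.94 (SE 0.62, 95% interval -3.42 to -0.47, adjusted p = 0.440 by limma) is loosely set. It was -1.25 without WT replicate 2, and -0.67 within slide 1 against -2.73 within slide 2.

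Sema5a and Sema6a, both transmembrane, had negative differences on every probe that met the detection rule, 2 of 5 for Sema5a and 5 of 5 for Sema6a. Sema5a, which carries thrombospondin repeats and binds plexins of group A in the mouse retina, read 7.10, 7.13 and 8.04 in Pax6-/- and 7.99, 8.44 and 8.02 in WT on its brighter probe. Pax6-/- replicate 3 overlapped the WT arrays there, and the difference was -0.73 (SE 0.35). On the second Sema5a probe the genotypes did not overlap, with 6.23, 5.91 and 7.40 in Pax6-/- against 7.58, 8.01 and 7.65 in WT, and the difference was -1.24 (SE 0.43, adjusted p = 0.478 by limma). Of the Sema5a probes that missed the rule, 1 was detected on 2 Pax6-/- arrays and no WT array. It read 5.19, 5.95 and 4.84 in Pax6-/- against 4.68, 4.89 and 4.56 in WT. Another was detected on 1 Pax6-/- array and no WT array, and the last on 1 array of each genotype. All 5 detected Sema6a probes, which report a ligand of Plxna2 and Plxna4, had differences between -1.34 and -0.49, and 1 of them did not overlap. That Sema6a probe was not detected on any Pax6-/- array. The brightest Sema6a probe differed between the slides, at -1.09 within slide 1 and 0.44 within slide 2. Pax6-/- replicate 3 was the only Pax6-/- array on slide 2, so slide and array cannot be told apart.

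The other 5 membrane-bound ligands overlapped between genotypes on their brightest probes. Sema4b, at 10.28, 9.09 and 9.23 in Pax6-/- and 9.98, 9.69 and 9.51 in WT, had a difference of -0.19 (SE 0.38). Sema4d, the ligand of Plxnb1, and Sema4f were high on Pax6-/- replicate 2 alone among the Pax6-/- arrays, at 7.12 and 7.47 there. Their differences of 0.03 and 0.40 were -0.74 and -0.19 without that array. The second Sema4f probe went the other way without overlap, at 4.57, 4.63 and 4.69 in Pax6-/-, where no array detected it, against 5.09, 5.52 and 4.90 in WT (-0.54, SE 0.27, adjusted p = 0.593 by limma). Sema6b, a ligand of Plxna4, read 4.66, 7.27 and 5.46 in Pax6-/- against 4.80, 4.73 and 4.74 in WT, and its difference of 1.04 (SE 0.63) was 0.30 without Pax6-/- replicate 2. Sema4g, at -0.42 (SE 0.57), had a difference of 0.12 without that array.

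Among the receptors, Plxna2 was the member with all Pax6-/- arrays above WT. It encodes a plexin that receives Sema6a directly and class 3 semaphorins with a neuropilin, and in the mouse it is known from cardiac neural crest cells. Its brightest probe read 9.09, 8.84 and 8.63 on the Pax6-/- arrays against 8.52, 8.25 and 8.14 on the WT arrays. The gap between the genotypes was smaller than the spread within each, and the difference was 0.55 (SE 0.27, 95% interval -0.08 to 1.18, adjusted p = 0.581 by limma). A second probe of nearly the same brightness read 8.75, 9.52 and 8.65 in Pax6-/- against 7.87, 8.38 and 7.75 in WT, again without overlap, with a difference of 0.97 (SE 0.35, adjusted p = 0.484 by limma). The difference on the brightest probe was 0.44 within each slide. The third, dim Plxna2 probe overlapped, at -0.20 (SE 0.67), and with all 3 averaged the genotypes overlapped.

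Plxnc1, the receptor of Sema7a, was the receptor whose Pax6-/- arrays all lay below WT, on 1 of its 2 probes. That probe read 4.69, 4.52 and 4.57 on the Pax6-/- arrays, none of which detected it, against 5.70, 6.99 and 5.43 on the WT arrays, all of which did. Against the lowest detected signal of each Pax6-/- array, the WT mean was at least 1.998-fold higher, a bound that carries no sampling error. The fitted difference was -1.45 (SE 0.44, 95% interval -2.48 to -0.42, adjusted p = 0.421 by limma). That difference lay between -1.75 and -0.97 when any 1 array was left out, and was nearest 0 without WT replicate 2. The probe met the detection rule through the WT arrays alone. The other Plxnc1 probe, detected on 1 array of each genotype and so not measured, overlapped, at 4.95, 4.98 and 4.84 in Pax6-/- against 4.67, 5.17 and 4.74 in WT. Its ligand gene Sema7a had 3 probes and was not measured: in Pax6-/- 1 probe was detected on 1 array, and in WT 2 probes were detected on 1 array each.

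Both neuropilins had negative differences with overlapping arrays on the brightest probe. Nrp1, the receptor of Sema3a and of VEGF-A, read 4.87, 4.96 and 6.18 on the Pax6-/- arrays against 5.92, 6.25 and 5.75 on the WT arrays, and was detected on 1 Pax6-/- array and on all WT arrays. Its difference was -0.64 (SE 0.41, 95% interval -1.61 to 0.33) and turned to 0.18 within slide 2. A second Nrp1 probe followed the same pattern, at -0.86 (SE 0.49).

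Nrp2, the receptor of Sema3f, read 6.78, 5.04 and 7.57 on the Pax6-/- arrays against 7.44, 6.64 and 6.98 on the WT arrays. Pax6-/- replicate 2 was the lowest of the 6, and the difference of -0.55 (SE 0.64) became 0.16 without it. A dimmer Nrp2 probe lay higher on all Pax6-/- arrays, at 6.01, 5.50 and 6.53 against 4.99, 4.93 and 5.24 on the WT arrays, with a difference of 0.96 (SE 0.33, adjusted p = 0.478 by limma). The third Nrp2 probe gave -0.44 (SE 0.41), so the direction of Nrp2 depended on the probe, and the 3 averaged gave -0.01 (SE 0.36).

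The other 7 plexins overlapped between genotypes. Plxnd1, the receptor of Sema3e and known from endothelium, spread most, with 6.92, 4.54 and 5.21 on the Pax6-/- arrays against 5.65, 8.01 and 6.88 on the WT arrays, and a difference of -1.29 (SE 0.78). It was 0.08 within slide 1 and -2.23 within slide 2. Plxnb1, the receptor of Sema4d, was bright and even, at 9.01, 9.45 and 9.51 in Pax6-/- against 9.33, 9.68 and 9.70 in WT (-0.25, SE 0.28, 95% interval -0.90 to 0.40). Plxnb2, a receptor of Sema4c, had a difference of -0.45 (SE 0.33), and Plxnb3, which binds Sema5a, of 0.23 (SE 0.51). The group A plexins Plxna1, Plxna3 and Plxna4 were dim, with differences of 0.35, -0.22 and -0.11 and standard errors of 0.33, 0.47 and 0.30.

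**Figure D3:**
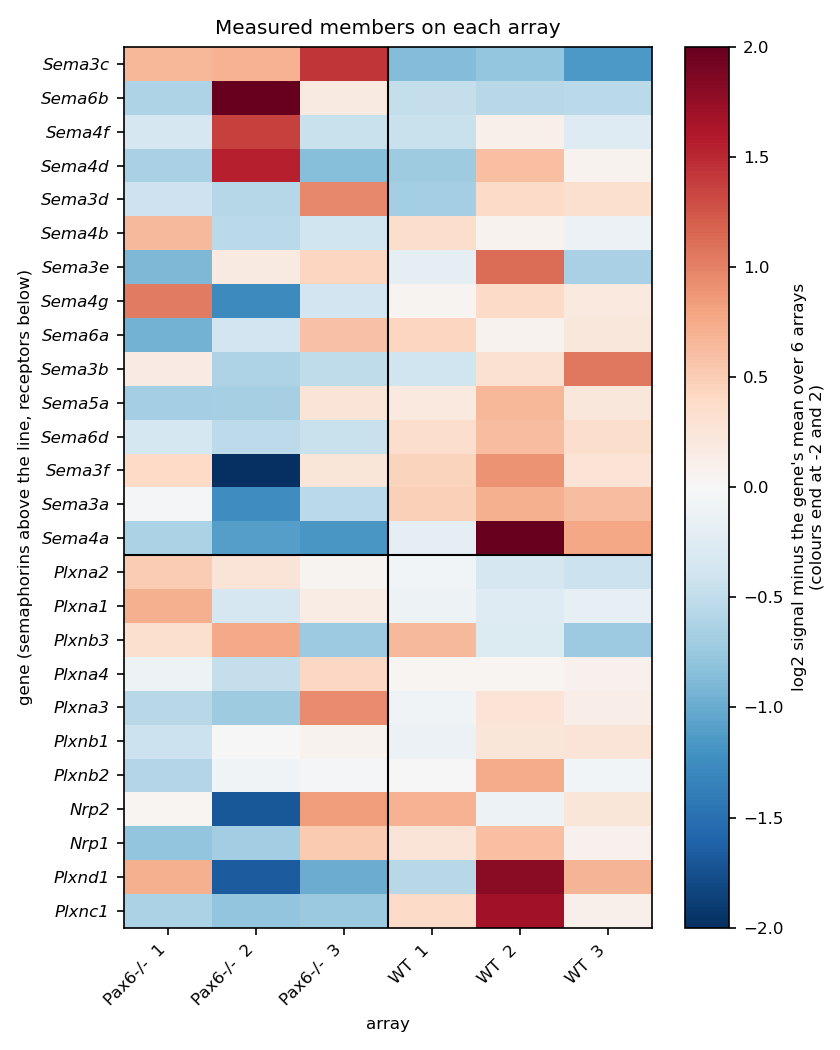
Log2 signal of each measured member (rows, semaphorins above the line and receptors below) on each array (columns, Pax6-/- left and WT right), minus the gene's mean over the 6 arrays. Sema3c is high on all 3 Pax6-/- arrays, while Sema3f, Nrp2 and Plxnd1 are lowest and Sema6b, Sema4f and Sema4d highest on Pax6-/- replicate 2.

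The array with the fewest detected probes was also low for many members. Pax6-/- replicate 2 detected 15 of the 26 measured members, the other Pax6-/- arrays 21 and 22, and each WT array 24. It held the lowest value of 12 members and the highest of 4, whereas WT replicate 2 held the highest of 10. After centring each gene on its mean, the median ligand stood at -0.35, -0.55 and -0.38 on the Pax6-/- arrays and at -0.18, 0.39 and 0.23 on the WT arrays. The median receptor stood at -0.10, -0.48 and 0.06 on the Pax6-/- arrays and at -0.01, 0.24 and 0.09 on the WT arrays. The ligands were thus lower on each Pax6-/- array than on each WT array by this measure, and the receptors overlapped. Without Pax6-/- replicate 2 the medians of the differences were -0.33 for the ligands and -0.09 for the receptors, beside -0.04 over all genes. The part of its low detection in the other values was not tested.

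Different probes of a gene often disagreed. Of 12 members with more than 1 detected probe, 1 had all probes higher (Sema3c), 6 had all probes lower (Sema3a, Sema3e, Sema5a, Sema6a, Sema6d and Nrp1), and 5 had probes in both directions (Sema3b, Sema3f, Sema4f, Nrp2 and Plxna2). Over all genes with more than 1 detected probe, 2353 of 4586 had probes in both directions. Probes that missed the detection rule, such as those of Sema5a, were not counted.

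**Figure D4:**
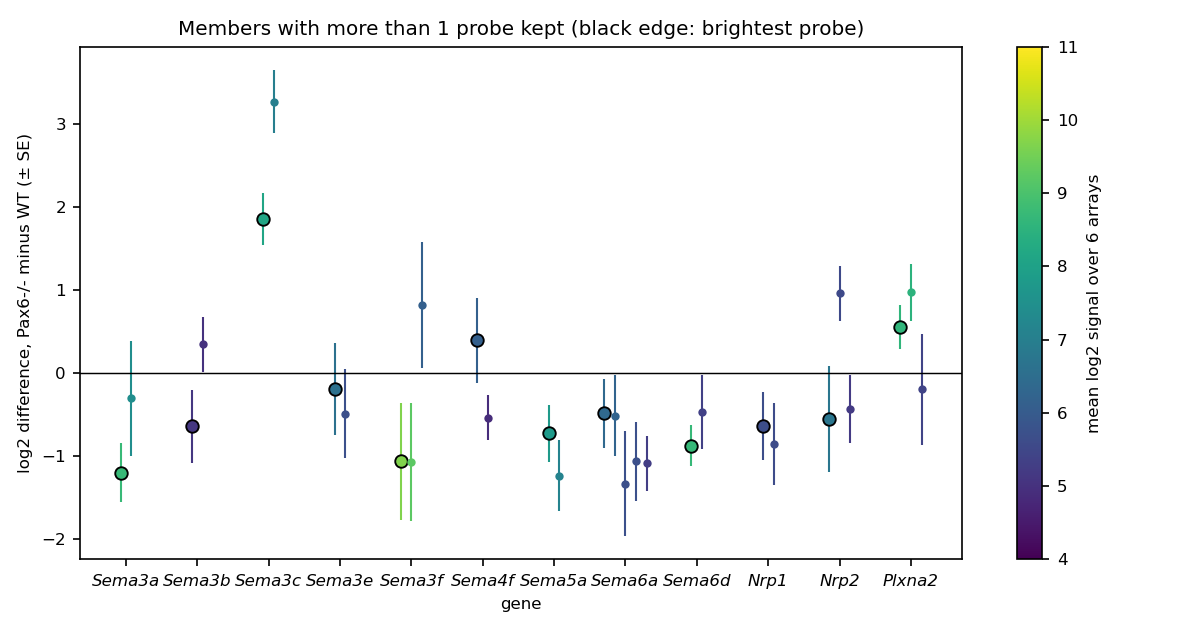
Log2 difference (Pax6-/- minus WT, y axis, with SE) of every detected probe of the 12 members that had more than 1, coloured by the mean log2 signal over the 6 arrays, with a black edge on the brightest probe. Sema3c has both probes above 0, Sema6a all 5 below, and the Nrp2 and Sema3f probes lie on both sides.

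Genes that work with the family were read from the same fit. Of 16 co-receptors and other binding partners on the array, 6 were measured, with 3 positive and 3 negative differences and none past the threshold. The kinase-like receptor Ptk7 and the adaptor Tyrobp lay lower on all Pax6-/- arrays, where 10.3% of all genes did so, with differences of -0.37 (SE 0.26) and -1.03 (SE 0.47). Tyrobp was dim, at 4.56, 4.67 and 4.95 in Pax6-/- against 5.42, 6.77 and 5.07 in WT. It was detected on 1 Pax6-/- array and on all WT arrays. The integrin chain Itgb1, which binds Sema7a, had a difference of 0.04 (SE 0.24). L1cam, Met, Kdr and Flt1 were among the 10 not measured. Of 5 VEGF ligands 3 were measured, all overlapping, with Vegfa, a ligand of Nrp1, at -0.27 (SE 0.27).

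Of 31 cytoplasmic mediators on the array, 26 were measured, 13 in each direction, with a median of 0.07 and none past the threshold. Cfl1, which severs actin filaments, lay lower on all Pax6-/- arrays, at 7.71, 6.56 and 8.09 against 8.25, 8.85 and 8.56 on the WT arrays (-1.10, SE 0.44, adjusted p = 0.527 by limma). The GTPases Rhoa and Rras and the collapsin response mediator Dpysl2 lay higher on all Pax6-/- arrays, with differences of 0.21 (SE 0.24), 0.54 (SE 0.32) and 0.33 (SE 0.25). These are 3.85% lower and 11.5% higher of the 26, beside 10.3% and 7.21% of all genes. Among the others, the semaphorin signalling genes Rac1, Gsk3b and Mical1 had differences of 0.24 (SE 0.31), -0.43 (SE 0.40) and -0.12 (SE 0.28).

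Markers of cell types that also express these genes were read from the same fit, and none passed the threshold. Of 11 endothelial markers 7 were measured, and their summed signal was 205 to 502 on the Pax6-/- arrays and 665 to 971 on the WT arrays, with no overlap. Of these, 5 lay lower on all Pax6-/- arrays, where 10.3% of all genes did so. They were Cldn5 (-2.16, SE 0.76), Ramp2 (-1.40, SE 0.34), Sox17 (-2.12, SE 0.60), Esam and Cdh5. Esam and Cdh5 were not detected on any Pax6-/- array. They met the detection rule through the WT arrays alone, and both are part of the count and of the sum. Cdh5 was near the detection limit in WT too, at 4.84 to 4.92, so no fold is given for it. The other 2 measured markers, Tek (0.79, SE 0.54) and Emcn (0.36, SE 0.54), overlapped with positive differences, while Pecam1, Kdr, Tie1 and Sox18 were not measured in either genotype. Plxnd1 and Nrp1, which endothelium expresses, had negative differences beside this, and the part of endothelial RNA in them was not tested.

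Of 10 periocular mesenchyme and neural crest markers on the array 9 were measured, and their summed signal was 4402 to 5468 on the Pax6-/- arrays and 3983 to 4294 on the WT arrays. Single markers went both ways without overlap: Tfap2b (0.89, SE 0.30) and Col1a2 (0.86, SE 0.29) were higher, and Pdgfra (-1.89, SE 0.33), Foxc2 (-0.73, SE 0.33) and Col6a2 lower, and Sox10 was not measured. These are 2 higher and 3 lower of 9, where 7.21% and 10.3% of all genes did so. Col6a2 met the detection rule through the WT arrays alone. Without Tfap2b, the sum of the other 8 was 1745 to 2254 on the Pax6-/- arrays and 2415 to 2928 on the WT arrays, the opposite direction, a split made after its values were seen. Most of that opposite difference was in turn Pdgfra, at log2 signals of 8.11, 7.68 and 8.76 in Pax6-/- against 10.17, 10.07 and 9.99 in WT. Neither sum is thus read as a level of the markers as a group. Sema3c and Plxna2, which neural crest cells express, lay higher beside markers that went both ways, and the part of such cells in them was not tested. Of 10 optic vesicle and neural markers 6 were measured, with a summed signal of 517 to 1445 on the Pax6-/- arrays, highest on replicate 2, and 513 to 538 on the WT arrays. Most of that difference was Pax2 (2.53, SE 0.76, higher on all Pax6-/- arrays). Without it the other 5 summed to 396 to 555 on the Pax6-/- arrays and 438 to 505 on the WT arrays, with overlap. Of these 5, Lhx2 (1.13, SE 0.42) and Tubb3 (0.64, SE 0.34) had positive differences. Hes5 (-0.46, SE 0.33), Rax (-0.39, SE 0.48) and Mitf (-0.23, SE 0.26) had negative ones, and all 5 overlapped. Of 5 macrophage markers 1 was measured, Aif1, at 58 to 421 on the Pax6-/- arrays and 66 to 293 on the WT arrays. The 5 primitive erythroid markers summed to 2899 to 14313 on the Pax6-/- arrays and 5689 to 13556 on the WT arrays. All 5 had negative differences, between -0.90 and -0.50. Of them only Klf1 lay lower on all Pax6-/- arrays. None of those arrays detected it, and it met the detection rule through the WT arrays alone.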

How the data were processed

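The labels placed 3 arrays in each genotype. The deposited probe table gave an average signal, read as an intensity on a linear scale, and detection p-values, per the file headers, with other columns for bead number and bead standard error that the authors deposited beside them. The submitters' processing notes name GenomeStudio without a version. A second table held the authors' processed intensity values, made by steps the sources used here do not give. Signals were corrected and quantile normalized with limma's neqc (limma 3.58.1, R 4.3.3; offset 16, which compresses differences of dim probes), taken to log2, and fitted by lmFit and eBayes on genotype alone. Probes detected on at least 3 of 6 arrays were kept, 21971 of 45281. A bound ("at least") sets the WT mean against, per Pax6-/- array, its lowest detected signal or, where higher, the probe's value there. Medians of lists are descriptions with no test. Same-numbered samples had deviations from their group means correlated at 0.06, 0.05 and 0.02, so the numbers do not pair them. No 2 arrays held identical values. Genes were named from the platform annotation, and promoter windows came from RefSeq by symbol, with 25 of 30 members matched. The family was picked for description, and the lists were chosen, with earlier results of these data known, although the symbol rule for members uses no measured value. The design set that all members be accounted for, with values on each array for Sema3c, Nrp1, Nrp2, Plxna2 and members past the threshold or without overlap. Such values of overlapping members, among them Sema3f, Sema4b, Sema5a, Sema6b, Plxnd1 and Plxnb1, are given beyond that rule, with the data seen. Markers and mediators that did not stand apart were named after their values were seen. The fit was tested on simulated data. Alternatives covered background, offset, normalization, the values the authors processed, the filter on detection, blocks for slide and for replicate, array weights, the prior, averaged probes and each array left out. Figures were drawn with matplotlib 3.10.9.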

Additional observations from a re-analysis of the deposited data

How the results depend on the processing

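No member passed the threshold in any alternative except with probes averaged, where 1 did, Sema3c. With probes averaged, 1 member lay higher and 4 lower without overlap (6.77% and 9.98% of all genes). Among the 14 members with a probe detected on all 6 arrays, 3 lay higher and 2 lower (8.71% and 9.70% of all genes). With 1 array left out, 4 to 10 lay lower, with 9 without Pax6-/- replicate 1 and 10 without Pax6-/- replicate 3, where 17.1% and 19.4% of all genes did so. With median scaling, which moved the median of all genes to -0.20, the medians were -0.45 for the ligands and -0.44 for the receptors. The median of the ligands was -0.19 with no detection filter, where 4 undetected members enter, and -0.18 within slide 1. That of the receptors was 0.23 over the 5 detected on all arrays, 0.18 within slide 2, and -0.55 to -0.090 with 1 array left out. With the replicate block the smallest adjusted p of a member by limma was 0.526 (Sema3c, 1.86), and 0 probes passed in the whole table, as with the slide as a block. With the brightest probes, no member's call changed with the replicate block.

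The averaged Sema3c difference was examined under further settings after the data were seen. It passed with no background correction (2.03), offset 50 (2.09), the authors' values (2.79), array weights (2.68) and the other prior (2.57). Adjusted p by limma was 0.0132 to 0.0347 there. With median scaling it did not pass (2.42, adjusted p = 0.0507 by limma). Nor did it pass over genes detected on all 6 arrays (2.57), with the slide as a block (2.57), or with the replicate block (2.57). The same held with 1 array left out (2.43 to 2.73). In these settings, median scaling apart, no gene in the whole table passed.

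The differences of several members changed sign, among them Plxnd1, Nrp1, Sema3b, Nrp2 and Sema6a, which were not near 0, and the cause was not tested. With array weights these were Plxna3 (0.044), Plxna4 (0.028), Plxnb3 (-0.0089), Sema3d (0.28), Sema3e (0.064) and Sema4d (-0.30). With the slide as a block they were Plxna3 (0.084), Plxna4 (0.0074), Plxnb3 (-0.17), Sema3d (0.39), Sema3e (0.0028) and Sema4d (-0.014). Within slide 1 they were Plxnb3 (-0.11), Plxnd1 (0.076), Sema3b (0.17) and Sema3d (0.19). Within slide 2 they were Nrp1 (0.18), Nrp2 (0.77), Plxna3 (0.74), Plxna4 (0.35), Plxnb3 (-0.24), Sema3d (0.60), Sema3e (0.19), Sema4d (-1.19), Sema4f (-0.37) and Sema6a (0.44). The authors' values turned Plxna4 (0.14) and Sema4d (-0.081), median scaling Sema4d (-0.17), no background correction Sema3d (0.011), offset 50 Sema3d (0.0077), averaging Sema4f (-0.072), and the filter on all 6 arrays Nrp2 (0.96), through another probe. With 1 array left out, 10 members changed sign: Nrp2 (-1.11 to 0.16), Plxna3 (-0.75 to 0.079), Plxna4 (-0.35 to 0.10), Plxnb3 (-0.090 to 0.65), Sema3d (-0.51 to 0.26), Sema3e (-0.57 to 0.31), Sema4b (-0.57 to 0.030), Sema4d (-0.74 to 0.47), Sema4f (-0.19 to 0.71) and Sema4g (-1.04 to 0.12). Of the 26 brightest probes, 13 were detected on all 6 arrays, among them those of Sema3e, Sema4b, Sema4f and Plxnb3, which changed sign.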
